A study of Mus musculus with 30 samples.

Results

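The 84 genes described here encode Rab GTPases (55 genes) and sorting nexins (29 genes), out of 20558 protein-coding genes on mouse chromosomes 1 to 19. They were chosen by symbol alone, as Rab followed by a number with or without a letter, or Snx followed by a number. Another 5 genes with such symbols lie on chromosome X and were not analysed here. The measurement was a list of replication initiation zones from 1 OK-seq library of E14TG2a cells, a line of mouse embryonic stem cells in common use. The cells were wild type, were grown in 2i/LIF medium with LIF, the GSK3 inhibitor CHIR99021 and the MEK inhibitor PD0325901, and were labelled with 10 µM EdU for 2 min. The series asks how old and new histones are divided between sister chromatids in wild-type and MCM2-2A mutant cells, and the other 29 of its 30 samples were not analysed here.

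Rab GTPases are small proteins that switch between a GTP-bound and a GDP-bound form and mark the membranes of the secretory and endocytic pathways. In their GTP form they recruit tethers, motors and coats. Sorting nexins carry a PX domain, which binds phosphoinositide lipids of endosomal membranes, and several of them work with the retromer complex to return receptors from endosomes to the Golgi or the cell surface. Both families serve functions that most cells need, with some members devoted to neurons, secretory cells, melanocytes or cilia. In OK-seq the strand of each sequenced Okazaki fragment shows which way a replication fork travelled. A place where leftward forks give way to rightward forks is an initiation zone, and the turning point within it is its breakpoint.

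The list held 2844 zones in mm10 coordinates, each with a breakpoint bin of 1 kb and an arm to either side, and neither arm exceeded 100 kb. It carries no read counts, so the depth of the library is unknown and no value could be weighted by it. With 1 library there is no replicate error, no test between groups and no p-value. The binomial intervals given below (Wilson, 95%) cover counting error only, treat genes as independent and do not cover the uncertainty of the zones. Whether the listed cells were stem cells could not be checked against markers, since the list holds positions and no expression values.

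Of the 64 members with a listed transcription start, the closest to a breakpoint were Snx22, Rab34 and Rab31, and the farthest from any zone were Rab17 and Rab23. Their upstream sequences are shown because the first 3 lie within about a bin of the point where forks diverge, while the others mark the opposite end of the range. Each sequence is the 250 bases before the start (RefSeq, GRCm38.p6), 5′ to 3′ along the gene, with the CpG dinucleotides in capitals.
Snx22: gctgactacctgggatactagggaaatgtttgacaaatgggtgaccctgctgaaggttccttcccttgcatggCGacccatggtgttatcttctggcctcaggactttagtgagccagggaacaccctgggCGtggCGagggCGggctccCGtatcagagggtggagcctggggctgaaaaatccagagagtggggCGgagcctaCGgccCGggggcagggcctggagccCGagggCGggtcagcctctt
Rab34: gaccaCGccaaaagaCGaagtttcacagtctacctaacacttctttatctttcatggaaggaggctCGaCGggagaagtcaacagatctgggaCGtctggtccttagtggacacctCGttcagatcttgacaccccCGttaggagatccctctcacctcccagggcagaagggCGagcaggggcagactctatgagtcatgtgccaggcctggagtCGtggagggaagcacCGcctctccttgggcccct
Rab31: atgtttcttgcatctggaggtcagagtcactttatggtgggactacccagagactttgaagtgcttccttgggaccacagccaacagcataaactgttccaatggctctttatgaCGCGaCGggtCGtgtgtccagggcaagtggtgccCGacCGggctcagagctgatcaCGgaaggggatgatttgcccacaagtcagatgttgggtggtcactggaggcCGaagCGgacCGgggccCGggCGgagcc
Rab17: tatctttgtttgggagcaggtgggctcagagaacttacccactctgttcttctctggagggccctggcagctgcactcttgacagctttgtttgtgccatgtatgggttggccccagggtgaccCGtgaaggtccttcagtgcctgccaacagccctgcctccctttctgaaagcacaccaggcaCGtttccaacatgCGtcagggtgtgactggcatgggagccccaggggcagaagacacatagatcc
Rab23: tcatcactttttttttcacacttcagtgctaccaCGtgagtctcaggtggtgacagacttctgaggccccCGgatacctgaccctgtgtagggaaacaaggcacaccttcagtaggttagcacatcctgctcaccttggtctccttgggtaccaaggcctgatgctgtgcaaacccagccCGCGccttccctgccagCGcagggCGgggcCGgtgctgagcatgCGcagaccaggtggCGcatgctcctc

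These windows lie at chr9:66069760-66070009 (minus strand) for Snx22, chr11:78188177-78188426 (plus strand) for Rab34, chr17:65772753-65773002 (minus strand) for Rab31, chr1:90967668-90967917 (minus strand) for Rab17 and chr1:33719646-33719895 (plus strand) for Rab23. They held 10 CpG in Snx22, 10 in Rab34, 12 in Rab31, 3 in Rab17 and 9 in Rab23. The starts lay 0.741 kb from a breakpoint in Snx22, 0.927 kb in Rab34 and 1.25 kb in Rab31, against 955.8 kb in Rab17 and 1114 kb in Rab23. The 2 distances below 1 kb are smaller than the bin and do not rank the genes.

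Rab and Snx genes lay at or near initiation zones more often than protein-coding genes as a whole, of which they are part. Of the 84 members, 46 had an end inside a zone (54.8%, interval 44.1 to 65.0%), against 32.4% of all protein-coding genes. Another 8 had an end outside but within 20 kb of a zone edge, so that 54 members were near a zone (64.3%, interval 53.6 to 73.7%), against 38.5% of all genes. Both families contributed, with 35 of 55 Rab genes (63.6%) and 19 of 29 Snx genes (65.5%). The members were proposed with zone positions already known, so these shares describe the families and no test was made of them.

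The median member lay 0 kb from a zone, that is, inside it (order-statistic 95% interval 0 to 16.7 kb), against 71.2 kb for all protein-coding genes. The upper quartile was 79.3 kb for members, against 242.0 kb for all genes. The members' share was also the higher one at a wider limit. Within 50 kb of a zone were 59 members (70.2%), against 45.4% of all genes, and 14 members (16.7%) lay over 200 kb from any zone, against 29.4% of all genes. Without the 1454 olfactory and vomeronasal receptor genes, the share of protein-coding genes near a zone was 41.0%.

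**Figure D1:**
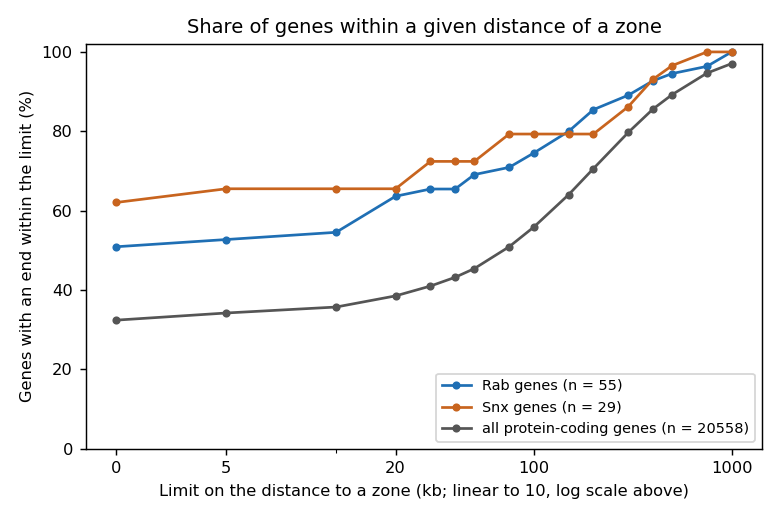
Share of genes (y axis, percent) that have an end within a given distance of a zone (x axis, kb, linear to 10 and logarithmic above), for 55 Rab genes, 29 Snx genes and all 20558 protein-coding genes. Both families start above all genes at 0 kb, with 50.9% of Rab and 62.1% of Snx genes against 32.4%.

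Breakpoints themselves lay close to several members but seldom within one. Within 5 kb of a breakpoint were 7 members (8.33%), against 4.18% of all genes. Within 20 kb were 19 members (22.6%), against 14.4%, and within 50 kb were 44 members (52.4%), against 29.1%. The gene body held a breakpoint bin in 3 members (3.57%, interval 1.22 to 9.98%), a share close to the 4.2% of all genes. The median distance from a gene end to a breakpoint was 47.4 kb for members and 129.1 kb for all genes.

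The 3 members with a breakpoint in the body were Rab31, Rab39 and Snx13. Rab31 acts in transport between the trans-Golgi network and endosomes. It spans 121.0 kb of chromosome 17 (65651726 to 65772752), and its start lay 1.25 kb to the right of the breakpoint, so that nearly the whole gene lay on the left. Rab39, which acts on phagosomes and late endosomes, spans chromosome 9 from 53684110 to 53706232. Its end that is not the start lay 3.39 kb left of a breakpoint, and its start lay 18.7 kb from that breakpoint. A pair of listed zones overlap at Rab39. Snx13, a sorting nexin with PXA and RGS domains, spans 101.3 kb of chromosome 12 (35046147 to 35147480) and had its outermost end 6.35 kb from a breakpoint. The start in the promoter table lay somewhat deeper in Snx13, 5.31 kb from the breakpoint.

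The other Rab genes with an end nearest to a breakpoint were shorter than the median gene. Rab34 (chromosome 11, 78188427 to 78192193), a Rab of ciliogenesis, lay wholly to the right of its breakpoint at 0.927 kb, in a zone of 61 kb that held ends of 8 protein-coding genes. Rab13, known from tight junctions, lay 3.11 kb left of a breakpoint in a zone of 69 kb (chromosome 3, 90213715 to 90226387). Rab26, which acts in regulated secretion, lay 4.55 kb right of a breakpoint (chromosome 17, 24529054 to 24533747). Rab42 lay 4.94 kb right of a breakpoint (chromosome 4, 132300438 to 132303382), where a pair of listed zones overlap. In Rab13 and Rab42 the nearer end was where transcription stops, in contrast to Rab34.

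Among sorting nexins, Snx22 (chromosome 9, 66065174 to 66069759), a small protein of little more than a PX domain, lay 0.741 kb left of a breakpoint. Snx2, a membrane-bending SNX-BAR protein that works with retromer, followed after Snx13 at 7.63 kb. Snx8, another SNX-BAR gene, lay at 11.2 kb. Snx6, a partner of Snx1 and Snx2 in the SNX-BAR coat, lay at 11.8 kb. Snx3, which helps retromer return the Wnt carrier Wntless, lay at 12.6 kb. All of these had an end inside a zone, and apart from Snx22 none came within 5 kb of a breakpoint.

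In 2 zones a pair of sorting nexin genes lay together. The zone of 121 kb on chromosome 9 (66038001 to 66160000) held Snx22 on the left of its breakpoint and Snx1 on the right, at 0.741 and 17.6 kb. Snx1 is the founding SNX-BAR gene of the family. A zone of 158 kb on chromosome 18 held Snx2 on the left and Snx24 on the right, at 7.63 and 15.4 kb, and these were the only protein-coding genes with an end in it. Snx1 and Snx2 encode close relatives with overlapping functions in mouse, and each shared its zone with a gene of the PX-only group. Counting each shared zone once left 52 of 82 members near a zone (63.4%).

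**Figure D2:**
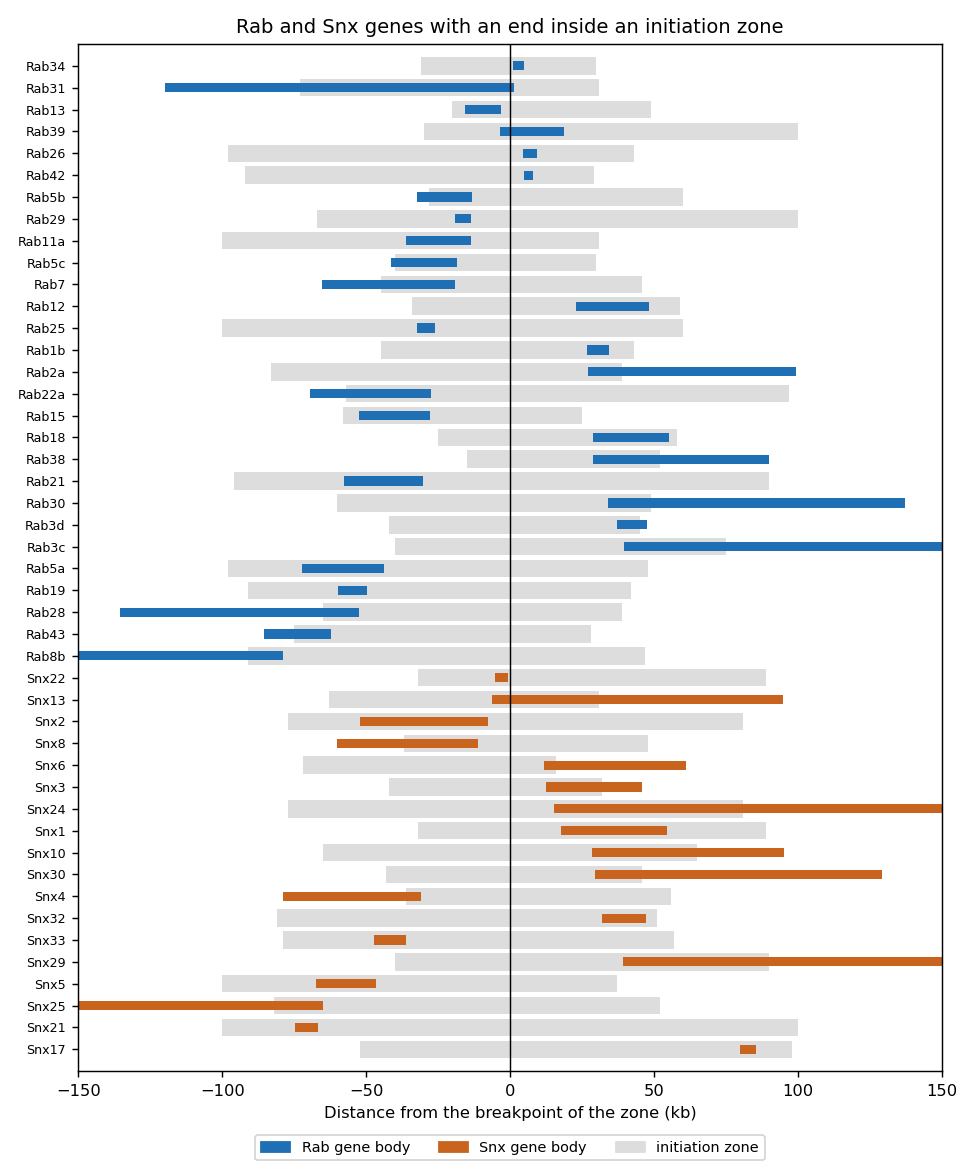
Gene bodies of the 46 members with an end inside a zone (blue for Rab, orange for Snx) against the breakpoint of that zone at 0 kb, with the zone as a grey bar; the x axis is distance in kb, the families are stacked with the nearest gene of each on top, and bodies that run past 150 kb are cut at the edge. Bodies mostly flank the breakpoint line, and Rab31, Rab39 and Snx13 cross it.

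The position of members within zones resembled that of other genes. The nearer end lay at a median of 27.1 kb from the breakpoint in the 46 members with an end inside a zone, against 23.0 kb in all 6664 such genes. As a share of the arm on that side, the median was 45.7% of the way to the edge, against 42.4% in all genes. The nearer end was right of the breakpoint in 21 of the 46 and left of it in 25. In 17 of the 46 (37.0%) no other protein-coding gene had an end nearer to the same breakpoint, a share near the 34.1% of all genes with an end inside a zone. The whole gene lay inside a zone in 23 of the 84 members (27.4%), against 18.6% of all protein-coding genes. Among genes with an end inside a zone, this was 23 of 46 members, a lower share than the 3831 of 6664 over all genes.

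Direction of transcription against the breakpoint could be read for 35 members, namely those with an end inside a zone, a strand in the promoter table and no breakpoint in the body. Forks leave a breakpoint on both sides, so a gene transcribed away from it is copied in the direction of its transcription if the fork from that breakpoint reaches it. Of these 35 members, 21 were transcribed away from the breakpoint (60.0%), a share near the 59.9% of all such genes. They included Snx22, Rab34, Rab5b, Rab5c, Rab7, Rab11a and Snx8. The Rab count was 11 of 21 and the Snx count 10 of 14, with wide intervals of 32.4 to 71.7% and 45.4 to 88.3%. Transcription ran towards the breakpoint in 14 members, among them Rab13, Rab42, Snx1 and Snx6.

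Zones that held members did not differ much in size from other zones with genes. The 46 zones with a member end had a median width of 121 kb (quartiles 88.3 and 136.8 kb), against 116 kb for the 2395 zones with any protein-coding gene end and 112 kb for all zones. The median number of protein-coding genes with an end inside was 3 in zones with members, against 2 in zones with any gene. A wider zone, or one with more gene ends, is more likely to hold a member of any gene set. These differences in width and gene number therefore say nothing particular about Rab and Snx genes. The distance from their breakpoint to the next one had a median of 360.0 kb, against 336.0 kb. Of the 46 zones, 6 had an arm at the 100 kb limit, so their listed edge may be the limit itself.

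The role groups below are small, and the share of all genes near a zone, 38.5%, stands beside each of their counts. Rabs of the ER and Golgi were near a zone in 6 of 10 genes. Rab1a and Rab1b, which drive transport between the ER and the Golgi, lay 4.41 kb from a zone and inside one. Rab2a, Rab18, Rab30 and Rab43 were inside zones as well, 27.0 kb from the breakpoint in Rab2a, 28.7 kb in Rab18, 34.1 kb in Rab30 and 62.3 kb in Rab43. Rab6a, the Rab of retrograde Golgi transport, lay 20.6 kb from a zone, just past the limit of 20 kb, and its relative Rab6b lay 315.7 kb away. Rab2b and Rab33b were 76.8 and 43.0 kb from a zone.

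Early endosome Rabs were near in 7 of 10 genes. All 3 genes of Rab5, the organiser of early endosome fusion, had an end inside a zone, with breakpoints at 13.2 kb for Rab5b, 18.3 kb for Rab5c and 43.8 kb for Rab5a. Rab31, Rab21 and Rab22a were also inside a zone, and Rab4a, a Rab of fast recycling, lay 16.7 kb from one. Rab20, Rab4b and Rab17 were the exceptions. They lay 70.4, 367.4 and 896.3 kb from the nearest zone.

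Rabs of recycling and polarised transport were near in 7 of 11 genes. Rab11a, the main Rab of the recycling endosome, had an end 13.7 kb from a breakpoint inside a zone, and its epithelial relative Rab25 lay at 26.2 kb. Rab12, Rab13, Rab15 and Rab8b were inside zones too, while Rab11b lay 19.5 kb from one. Rab8a, Rab35, Rab10 and Rab14 lay 49.6, 86.9, 186.0 and 239.9 kb from the nearest zone. Rab10 acts in the delivery of the glucose transporter GLUT4 to the cell surface.

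Rabs of late endosomes, lysosomes and melanosomes were near in 3 of 5 genes. Rab7, the central Rab of late endosomes, Rab29 of the lysosome and trans-Golgi network, and Rab38 of melanosomes were all inside zones, with the breakpoint 19.2 kb from Rab7, 13.6 kb from Rab29 and 28.8 kb from Rab38. Rab32, which shares its melanosome role with Rab38, lay 649.8 kb from any zone. Rab7b lay 103.6 kb away. Rab38 was thus inside a zone, while Rab32 was among the members farthest from one.

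Rabs of regulated secretion were near in 5 of 8 genes. Of the Rab3 genes, which act on synaptic and other secretory vesicles, Rab3c and Rab3d had an end inside a zone, and Rab3a and Rab3b lay 12.7 and 18.7 kb from one. Rab26, described above, was the other gene of the group inside a zone. In Rab3c, a gene of 226.8 kb, the end inside the zone was where transcription stops, and the start lay 190.2 kb from a zone. Rab27a and Rab27b, which move melanosomes and secretory granules, lay 197.8 and 158.1 kb from a zone. Rab37 lay 211.3 kb away.

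The remaining 11 Rab genes had 7 near a zone. Rab19, Rab28, Rab34, Rab39 and Rab42 had an end inside one, Rab40b lay 9.12 kb and Rab24 11.0 kb from one. Rab23, which restrains Hedgehog signalling, was the member farthest from any zone at 995.4 kb. Rab44, a large Rab with EF-hand motifs, lay 472.0 kb away. Rab36 and Rab40c lay 104.3 and 122.3 kb from the nearest zone.

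Sorting nexins of the SNX-BAR group, which bend membranes into tubules, were near in 9 of 12 genes, and all 9 had an end inside a zone. Over all genes the shares were 38.5% near and 32.4% inside. They were Snx1, Snx2, Snx4, Snx5, Snx6, Snx8, Snx30, Snx32 and Snx33. Snx18, Snx7 and Snx9 lay 64.4, 228.1 and 360.3 kb from one. Snx9 and Snx18 act in endocytosis at the cell surface.

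Sorting nexins grouped here as PX-only were near in 6 of 9 genes, namely Snx3, Snx10, Snx21, Snx22, Snx24 and Snx29, all with an end inside a zone. Snx16, Snx11 and Snx20 lay 26.8, 55.3 and 281.9 kb away. Among genes with a FERM domain, which read sorting signals of receptors, Snx17 had an end inside a zone and Snx27 lay 0.542 kb from one, while Snx31 lay 315.1 kb away. In the PXA-RGS group, Snx13 and Snx25 were inside zones and Snx14 and Snx19 were 24.1 and 457.9 kb from one. Snx15, the remaining gene, lay 604.4 kb from any zone, the largest distance of a sorting nexin.

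**Figure D3:**
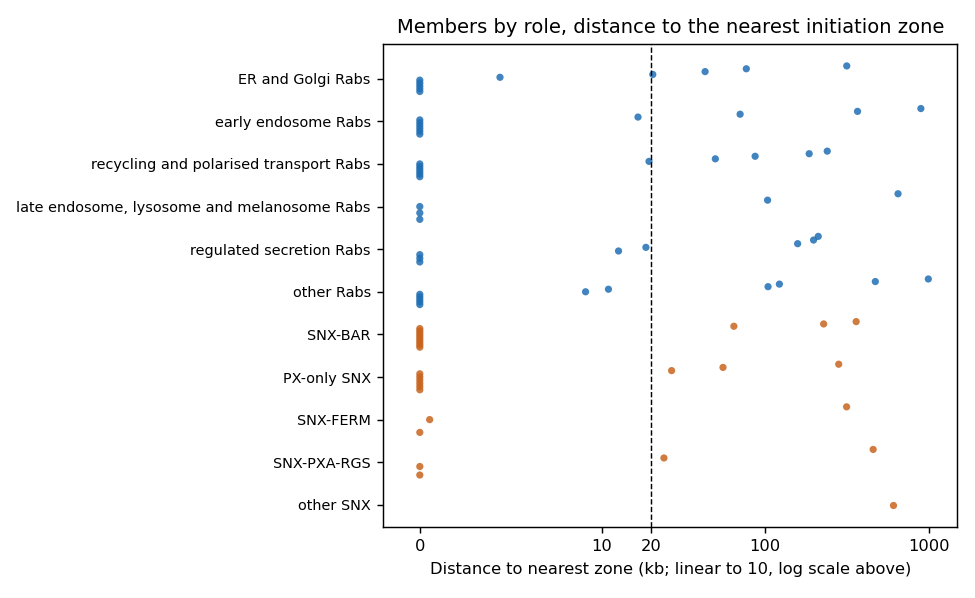
Distance of each of the 84 members (points, blue for Rab and orange for Snx) from its nearest zone (x axis, kb, linear to 10 and logarithmic above) by role (y axis), with the 20 kb limit as a dashed line; points at 0 kb have an end inside a zone. Every group of more than 1 gene has members on both sides of the limit, from 2 of 4 near in the PXA-RGS group to 9 of 12 in the SNX-BAR group.

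Shares near a zone in role groups of 3 or more genes ran from 50.0% to 75%, against 38.5% of all genes. With so few genes in each group, the shares were not ranked. The limit of 20 kb split few genes closely. Just inside it were Rab4a at 16.7 kb, Rab3b at 18.7 kb and Rab11b at 19.5 kb. Just outside it were Rab6a at 20.6 kb, Snx14 at 24.1 kb and Snx16 at 26.8 kb. Rab11b, Rab40b and Rab20 lay beyond an arm that had reached the 100 kb limit, so their distance to the zone may be overstated.

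Paralogues were placed alike in some sets and differently in others. With 64.3% of members near a zone, split sets also arise among unrelated members, so the counts only describe these sets. Of 11 sets of Rab genes that share a number, 4 sets had every gene near a zone (Rab1, Rab3, Rab5 and Rab11), 2 sets had none (Rab6 and Rab27) and 5 sets were split. In the split sets, Rab2a lay 27.0 kb from a breakpoint and Rab2b 134.3 kb. Rab4a lay at 48.2 kb and Rab4b at 466.9 kb. Rab7 lay at 19.2 kb and Rab7b at 139.2 kb. Rab8b lay at 78.8 kb and Rab8a at 121.1 kb, a smaller gap than in the other pairs named so far. Rab40b, a Rab with a SOCS box, lay at 109.6 kb and Rab40c at 173.8 kb. The genes of each set lie on different chromosomes, so none of these sets shared a zone.

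**Figure D4:**
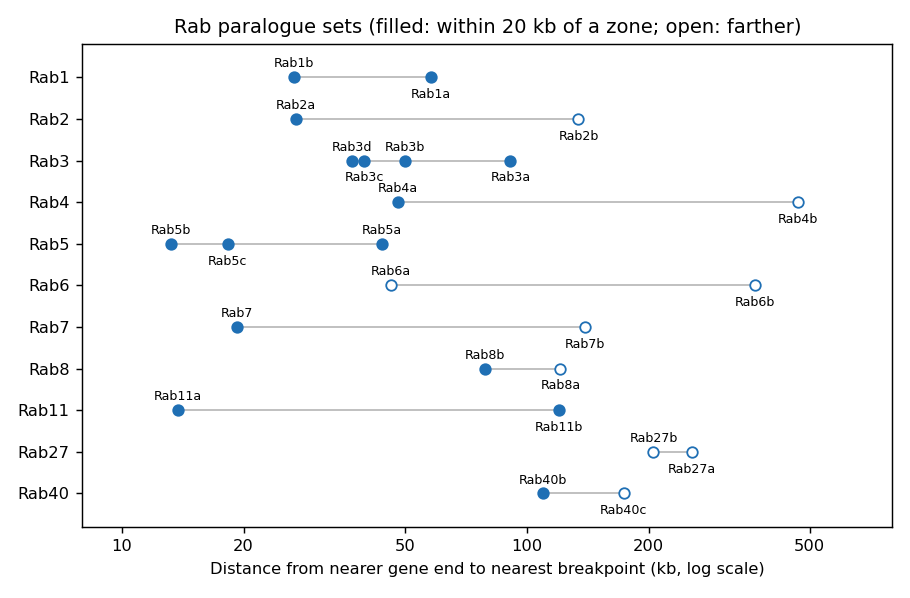
Distance from the nearer gene end to the nearest breakpoint (x axis, kb, log scale) for the 25 genes of 11 Rab paralogue sets (y axis), with filled points for genes within 20 kb of a zone and open points for genes farther away; grey lines join a set. The Rab5 genes lie between 13.2 and 43.8 kb, whereas Rab4a and Rab4b lie at 48.2 and 466.9 kb.

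Members were longer than other genes, and they were not in richer gene surroundings. The median length was 26.4 kb for members and 17.6 kb for all protein-coding genes, and the median number of other protein-coding genes within 250 kb was 7 for members and 9 for all genes. Since longer genes had an end near a zone more often, shares are also given in 4 length classes bounded by the quartiles of all genes. The shares of all genes in these classes include the receptor genes, without which the share over all lengths was 41.0%. In the shortest class, below 6.0 kb, all 8 members were near a zone, against 25.4% of all genes. These were Rab3a, Rab24, Rab26, Rab29, Rab34, Rab42, Snx17 and Snx22. In the 3 longer classes, from short to long, the shares were 50.0% (8 of 16), 59.4% (19 of 32) and 67.9% (19 of 28), against 39.3%, 41.6% and 47.8% of all genes.

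By number of neighbouring genes, members near a zone made up 62.1%, 57.7%, 64.3% and 80.0% from the sparsest to the densest class, against 40.1%, 39.8%, 39.5% and 34.1% of all genes. The members' share thus lay above that of all genes, receptor genes included, in each of these 8 classes. Chromosome 9 held the most members, 11, of which 7 were near a zone, against 39.3% of its protein-coding genes. Without it the members' share was 64.4%. The other chromosomes held 1 to 8 members each, too few to be compared with one another.

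**Figure D5:**
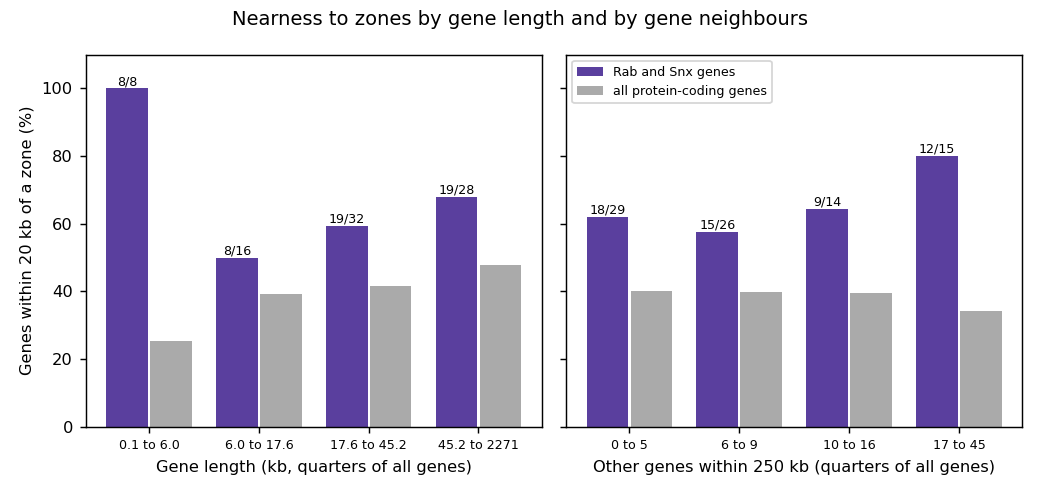
Percent of genes within 20 kb of a zone (y axis) for Rab and Snx genes (purple, with the count near of the count in the class) and for all protein-coding genes (grey), by classes bounded by the quartiles of gene length in kb (left) and of the number of other protein-coding genes within 250 kb (right). The purple bar is the higher of the pair in every class, by the widest margin for genes under 6.0 kb, where 8 of 8 members were near. The grey bars include the receptor genes, and no class was computed without them.

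Taking the transcription start in place of either gene end left 64 members with a listed start, of which 40 (62.5%) had it within 20 kb of a zone, against 33.7% of all genes with a listed start. Within 20 kb of a breakpoint were 14 of these starts (21.9%), against 10.4%. The promoters of these members were CpG-rich, with a median of 19.5 CpG in the 250 bases before the start, against 10 over all 16457 promoters. Receptor genes were not left out of the promoter values of all genes given here and below. Among all genes, promoters of genes near a zone held more CpG than others, with medians of 15 and 7. Among members the order was the other way, with a median of 18 in the 44 genes near a zone and 23 in the 20 others. The starts shown above, with 10 to 12 CpG at a breakpoint, lay below the median of the members.

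A match of CACGTG, the E-box core to which the lysosomal regulator TFEB and many other factors bind, reads the same on both strands. It was present in 7 of the 64 member promoters (10.9%), against 6.73% of all promoters, and Rab23 was the only gene with it among those printed. A pattern of 4 runs of GGG with gaps of 1 to 7 bases, on either strand, as in sequences that can fold into G-quadruplexes, was found in 16 (25%), against 19.4% of all promoters. None of the printed sequences held it. Among members it was in 27.3% of the 44 promoters of genes near a zone and 20% of the 20 others, against 23.3% and 16.9% over all promoters split the same way. These matches describe letters in the window and are not binding sites.

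In lists of other genes of the same pathways, drawn up with results of these data known, shares near a zone lay above that of all genes, but the interval of each reached below it. Of 68 genes of the Rab machinery, which load, activate, switch off or prenylate Rabs, 34 were near a zone (50.0%, interval 38.4 to 61.6%), against the 38.5% of all genes. Mon1a, part of the exchange factor for Rab7, had an end 1.36 kb from a breakpoint. Dennd6b lay 1.93 kb from one, and Tbc1d7 lay 1099 kb from any zone. Of 37 Rab effectors and tethers, 20 were near (54.1%, interval 38.4 to 69.0%). Exoc6b, an exocyst subunit gene, and Rilpl1, whose product binds Rab8 and Rab10, lay 7.01 and 8.42 kb from a breakpoint, and the Rab3 effector gene Rims1 was 947.0 kb from a zone.

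A list of 22 genes held those of retromer, retriever and WASH, complexes that work with sorting nexins, and also Ccdc93 and the Commd genes. Of these 22 genes together, 12 were near (54.5%, interval 34.7 to 73.1%). Washc1 of the WASH complex lay 6.03 kb and Ccdc93 11.6 kb from a breakpoint, while the retromer subunit gene Vps26a lay 391.2 kb from a zone. The other retromer subunit genes, looked up after their values were seen, were not near a zone either, with Vps35 at 89.5 kb, Vps26b at 90.9 kb and Vps29 at 121.0 kb. Arf and Arl genes, another family of small GTPases in membrane traffic, had 12 of 25 near (48.0%, interval 30.0 to 66.5%). Arl13b, the ciliary GTPase gene, lay 1.56 kb and Arf2 9.22 kb from a breakpoint, and Arl5b lay 892.3 kb from a zone. Ubiquitin-specific protease genes, a family outside the pathway, had 30 of 44 near (68.2%, interval 53.4 to 80.0%), against 64.3% of the Rab and Snx genes. Usp50 and Usp16 lay 0.96 and 1.49 kb from a breakpoint, and Usp25 was 578.7 kb from a zone. The shares of these lists were not tested against each other.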

How the data were processed

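Zones came from the list that the authors deposited for the wild-type OK-seq library. Per the file headers, it gives for each breakpoint bin the bins of a maximum and a minimum, both distances in bp, a size, and how far the next breakpoint lies. The size equalled the sum of both arms in all 2844 entries. The submitters' processing notes name mm10 and, with no role or order, Trim Galore 0.4.2, BWA 0.7.13, Bowtie, SAMtools, Picard 2.8.2 and bcl2fastq. The sources used here do not give calling thresholds, nor what the minimum and maximum are of. The extraction protocol in the labels describes a chromatin immunoprecipitation and no step of OK-seq.

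Gene positions were those of RefSeq GRCm38.p6, the same build. Left out were 333 genes of any type placed on scaffolds, recognised by positions out of the chromosome's order or before 3 Mb. Strands and starts came from a RefSeq promoter table, which held 64 of the 84 members and 16457 protein-coding genes. Where a gene had several starts, the most upstream one was used. A zone ran from the left edge bin to the right edge bin. Distances ran from the nearer gene end to the zone edge (0 inside) or to the middle of the breakpoint bin. A gene within 20 kb of a zone was called near. The distance code was tested on simulated zones at known distances. The members and all lists were chosen with earlier results of these data known. Named were members with a breakpoint in the body, the 6 per family nearest to a breakpoint, the 4 farthest from a zone, those around the 20 kb limit, those sharing a zone and split paralogues. From each other list the 2 nearest and the 1 farthest gene were named, and values of the remaining members are given by role, outside this rule, to account for each. Work was done in Python 3.11.15 with pandas 2.3.3, numpy 2.4.6 and scipy 1.17.1.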

Additional observations from a re-analysis of the deposited data

How the results depend on the processing

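The share of members near a zone stayed above that of all protein-coding genes under each of the 16 alternatives tried. It stayed within the interval of the reported 64.3% in 12 of them, at 54.8 to 70.2%, though some of the 12 could not move it, as given below. It left the interval with gene midpoints (47.6%, against 29.9% of all genes), with the central 0.5 of each zone (51.2%, against 29.4%), with an end within 50 kb of a breakpoint (52.4%, against 29.1%), and with only the 1429 zones of median width or more (33.3%, against 23.4%), a list that is shorter by construction. The share with an end inside a zone left its interval with midpoints (39.3%, against 22.5%), the central 0.5 (34.5%, against 19.5%) and wide zones (29.8%, against 20.1%). With wide zones, 1.19% of members held a breakpoint in the body, against 2.17% of all genes. With the breakpoint bin widened by 5 kb on each side that share was 9.52%, against 6.82% of all genes, the reverse of the order in the bins as listed. The median distance was 214.8 kb to a wide zone, against 254.5 kb for all genes, and 47.4 kb to a breakpoint. Merging zones less than 10 kb apart changed none of these values. An end in such a gap was already within 20 kb of a zone, and merging set no new breakpoint. Neither the share near a zone nor the share with a breakpoint in the body could therefore move. Leaving out the receptor genes changed only the comparison and not the members. The comparison without receptor genes, those by gene length and neighbours and that without chromosome 9 were added after the data were seen. No paired analysis was possible because the list comes from 1 library, and for the same reason no replicate could be left out.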

Other observations

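Some members lay far from zones although genes were crowded around them. Snx15 on chromosome 19, 604.4 kb from any zone, had 30 other protein-coding genes within 250 kb, and 76 genes had an end nearer than its own to the nearest breakpoint. Rab40c had 31 such neighbours and lay 122.3 kb from a zone, and Rab37 had 21 and lay 211.3 kb away. In contrast, Rab2a and Rab38, with 1 neighbour each, had an end inside a zone and were the only protein-coding genes with an end in it. These genes were chosen after their values were seen.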
